A study of Arabidopsis thaliana with 8 samples.

Results

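The 4 nuclear genes that encode the Rubisco small subunit, RBCS1A (AT1G67090), RBCS1B (AT5G38430), RBCS2B (AT5G38420) and RBCS3B (AT5G38410), and the Rubisco activase gene RCA (AT2G39730) were followed across 4 Arabidopsis genotypes. The genes were picked by locus code, and all 5 were found among the 33557 genes of the expression tables. RNA was sequenced from whole seedlings aged 7 days, grown on plates in long days. The wild type was Col-0. One line carried dek3-2, another dek4-2, and the line called dd-2 carried both mutations together, with 2 libraries per genotype that the series calls biological replicates. DEK3 and DEK4 encode DEK-domain proteins, which bind chromatin, and the series asked which genes are misexpressed when they are mutated. Each mutant is represented by a single allele or allele pair, and the kind of lesion was not given in the sources used here.

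Rubisco fixes CO2 in the chloroplast and is built from large subunits, encoded by the chloroplast gene RBCL, and small subunits, which are made in the cytosol from nuclear RBCS messages and imported. Rubisco activase is an ATP-driven chaperone that removes sugar phosphates bound tightly to the active sites, so that the enzyme can work in the light. Messages of the RBCS family and of RCA are among the most abundant of green leaves, are induced by light, and in plants have long served to study light-responsive promoter elements such as the G-box and the I-box.

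All 5 genes lie on the minus strand. RBCS1A stands alone on chromosome 1 (TAIR10 positions 25048158 to 25049424), and RCA on chromosome 2 (16570746 to 16573548). The other 3 small-subunit genes form a tandem cluster on chromosome 5, with RBCS3B at 15377173 to 15378416, RBCS2B at 15380945 to 15382035 and RBCS1B at 15384117 to 15385247. The gaps between neighbours in the cluster were 2528 bp and 2081 bp, and 0 other annotated loci lay between them. The promoter windows are shown to describe which motifs each member holds. No motif searched was found in all 5 windows, and a link between motifs and levels was not tested. Each runs from 250 bases before to 50 bases after the annotated start and was read 5′ to 3′ on the gene's strand from the RefSeq genome TAIR10.1, at chr1:25049375-25049674 for RBCS1A, chr5:15385198-15385497 for RBCS1B, chr5:15381986-15382285 for RBCS2B, chr5:15378367-15378666 for RBCS3B and chr2:16573499-16573798 for RCA. Capitals mark the letters of the I-box (GATAAG), the G-box (CACGTG), the GT-1 box (GGTTAA) and a TATA box (TATAAA), each searched on both strands.
RBCS1A: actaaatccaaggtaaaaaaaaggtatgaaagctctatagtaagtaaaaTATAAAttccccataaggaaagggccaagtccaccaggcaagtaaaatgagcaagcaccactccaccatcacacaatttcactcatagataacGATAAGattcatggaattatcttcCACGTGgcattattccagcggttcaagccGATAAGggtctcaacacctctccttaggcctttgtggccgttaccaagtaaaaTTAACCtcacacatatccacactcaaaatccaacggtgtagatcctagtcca
RBCS1B: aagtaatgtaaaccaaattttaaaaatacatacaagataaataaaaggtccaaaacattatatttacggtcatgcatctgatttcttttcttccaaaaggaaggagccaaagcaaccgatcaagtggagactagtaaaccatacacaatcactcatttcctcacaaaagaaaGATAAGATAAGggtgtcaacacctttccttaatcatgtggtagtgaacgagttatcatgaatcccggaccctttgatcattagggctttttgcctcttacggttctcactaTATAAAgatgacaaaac
RBCS2B: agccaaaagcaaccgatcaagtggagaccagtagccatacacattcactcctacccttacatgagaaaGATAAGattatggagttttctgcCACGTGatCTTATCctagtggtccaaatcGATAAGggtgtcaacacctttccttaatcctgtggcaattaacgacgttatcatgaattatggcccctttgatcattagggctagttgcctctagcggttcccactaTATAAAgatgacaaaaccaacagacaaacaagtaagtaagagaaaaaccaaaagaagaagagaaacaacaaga
RBCS3B: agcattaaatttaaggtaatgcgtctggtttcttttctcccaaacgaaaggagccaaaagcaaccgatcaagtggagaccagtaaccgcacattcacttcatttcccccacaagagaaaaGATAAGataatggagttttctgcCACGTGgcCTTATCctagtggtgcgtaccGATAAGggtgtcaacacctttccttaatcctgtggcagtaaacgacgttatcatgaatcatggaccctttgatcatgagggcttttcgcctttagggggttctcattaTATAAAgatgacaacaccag
RCA: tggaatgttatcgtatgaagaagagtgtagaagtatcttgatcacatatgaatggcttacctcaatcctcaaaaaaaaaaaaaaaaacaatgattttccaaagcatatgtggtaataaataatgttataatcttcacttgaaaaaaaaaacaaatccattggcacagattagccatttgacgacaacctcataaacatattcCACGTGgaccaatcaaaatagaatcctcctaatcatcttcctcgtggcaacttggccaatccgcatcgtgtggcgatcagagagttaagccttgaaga

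The I-box letters were found in the windows of all 4 small-subunit genes and not in that of RCA, against 15.2% of 23006 promoter windows of the same length across the genome. The G-box letters were found in RBCS1A, RBCS2B, RBCS3B and RCA and not in RBCS1B, against 8.03% of all windows. RBCS2B and RBCS3B shared an arrangement of an I-box, a G-box, a reversed I-box and a second forward I-box, while RBCS1A had an I-box on either side of its G-box. RBCS1B held a pair of I-box matches that overlap by 1 base, from 78 to 68 bases before the start. The GT-1 letters were found in RBCS1A alone (15.9% of all windows), and TATAAA in the 4 small-subunit windows (51.4% of all). In RBCS1B and RBCS3B the TATAAA match lay 34 and 31 bases after the annotated start. In RBCS2B it lay 23 bases before the start and in RBCS1A 201 bases before, so the windows are not aligned on one element. A match is a description of letters and says nothing of binding in these seedlings.

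**Figure D1:**
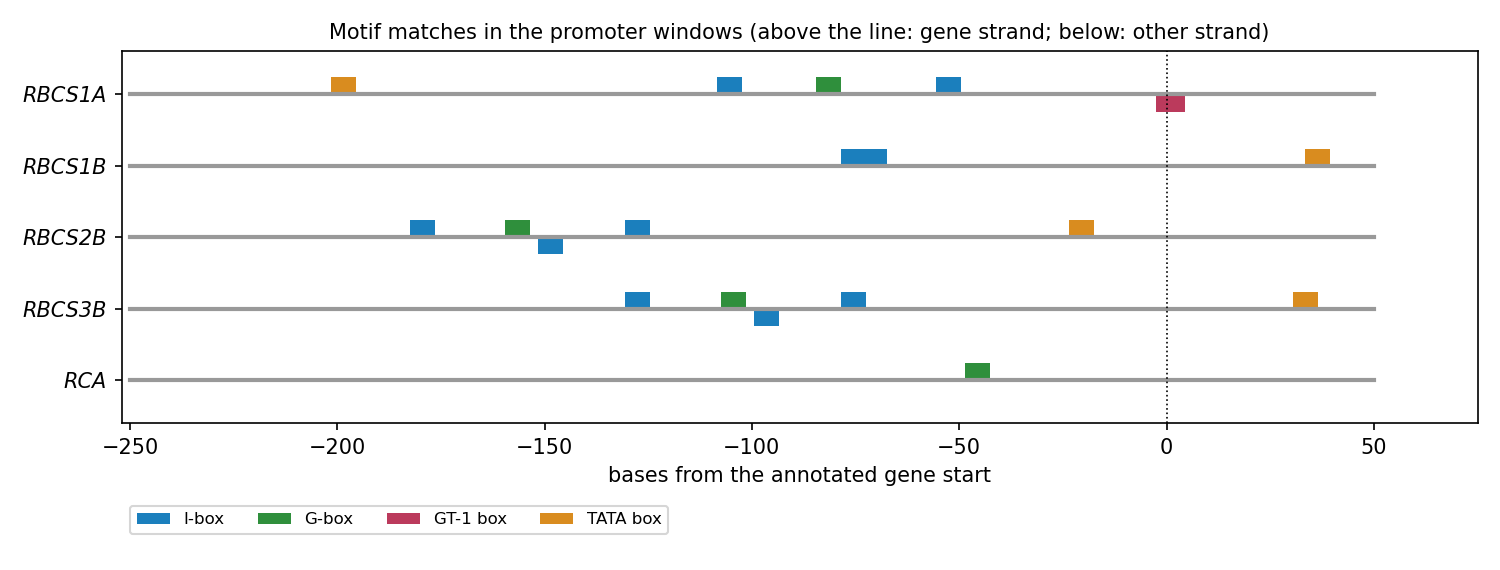
Positions of the 4 motifs in the 5 promoter windows. The horizontal axis is the distance in bases from the annotated start, and each mark is 1 match, coloured by motif. I-box matches appear in the 4 small-subunit windows, and G-box matches in RBCS1A, RBCS2B, RBCS3B and RCA.

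The coding sequences of the small-subunit genes are close copies of one another. RBCS1B and RBCS2B were 97.3% identical over the coding sequence and 97.8% over the protein, while RBCS1A and RBCS3B were the least alike at 87.7% and 88.2%. The proteins hold 180 residues for RBCS1A, 181 for RBCS1B and RBCS2B and 186 for RBCS3B. Of all 100-base stretches of the transcript, 17.7% in RBCS1B and 12.1% in RBCS3B occur unchanged in another RBCS transcript, against 0% in RBCS1A and RBCS2B. At 50 bases the shares were 32.2% in RBCS1B, 21.4% in RBCS2B, 18.4% in RBCS3B and 1.48% in RBCS1A. Read length and the treatment of reads with several matches were not given in the sources used here, so the split of values within the chromosome 5 cluster is uncertain, most of all for RBCS1B.

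Levels are given in FPKM (fragment counts divided by gene length and library size), a scale on which genes can be compared per length. Library totals lay between 839267 and 873796 FPKM, and 18504 to 19283 genes reached 1 FPKM. Relative depth was lowest in the dd-2 libraries, at 0.909 and 0.800 of the mean library, against 0.983 to 1.12 in the other 6. If the steps between low values were 1 fragment each, the lowest value of any member stood for an estimated 19496 fragments. That value was RBCS1B in dd-2 replicate 2. On that reading, counting error (a coefficient of variation of 0.716%) was small beside the spread between libraries. It does not cover reads that match several RBCS genes. DEK3 stood at 48.3 and 70.2 FPKM in Col-0, 16.7 and 13.3 in dek3-2, 47.3 and 80.7 in dek4-2, and 19.9 and 17.5 in dd-2. DEK4 stood at 23.7 and 35.2 FPKM in Col-0, 37.95 and 27.0 in dek3-2, 10.3 and 18.4 in dek4-2, and 16.3 and 15.4 in dd-2, so each gene was lower in both kinds of library labelled with its mutation. One library stood furthest apart: dek3-2 replicate 1 had a summed level of 774 FPKM over 4 seed-storage markers. The differences that use dek3-2 are therefore also given without it. Next was dd-2 replicate 2 at 79.96 FPKM, against 1.45 in dd-2 replicate 1 and at most 12.4 in the rest. For dd-2 minus Col-0, the range with each library left out is given in the closing section.

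RBCS1A was the most abundant message in the seedlings, ranking first of all genes by FPKM in each of the 8 libraries. RBCS3B ranked between 3 and 5, RCA between 7 and 10, RBCS2B between 8 and 11, and RBCS1B between 35 and 67. In Col-0 the mean levels were 14185 ± 1378 FPKM (SD, n = 2) for RBCS1A, 6293 ± 346 for RBCS3B, 3984 ± 499 for RCA, 3856 ± 234 for RBCS2B and 1561 ± 215 for RBCS1B. RCA and RBCS2B did not differ beyond their spread, while the other neighbours in this order were separated in every library. The 5 genes together took 3.64% and 3.30% of all FPKM in the Col-0 libraries and 2.65% in each dd-2 library.

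RBCS1A, which supplies the largest part of the small-subunit message, stood at 15159 and 13211 FPKM in Col-0, 12670 and 13018 in dek3-2, 14088 and 12446 in dek4-2, and 11154 and 10721 in dd-2. Both dd-2 libraries lay below all 6 others, both dek3-2 libraries lay below both Col-0 libraries, and the dek4-2 libraries overlapped Col-0. RBCS3B stood at 6538 and 6049 FPKM in Col-0, 5430 and 5842 in dek3-2, 6085 and 5417 in dek4-2, and 4566 and 4596 in dd-2. It showed the same order of groups, with the dd-2 libraries lowest and close to each other. RBCS2B stood at 4022 and 3691 FPKM in Col-0, 3367 and 3594 in dek3-2, 3732 and 3297 in dek4-2, and 2853 and 2907 in dd-2, again with dd-2 below every other library.

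RBCS1B, the least abundant of the family, stood at 1713 and 1409 FPKM in Col-0, 1377 and 1551 in dek3-2, 1488 and 1281 in dek4-2, and 1104 and 1216 in dd-2. Its dd-2 libraries were the lowest of the 8, but, unlike those of the other members, its dek3-2 libraries overlapped Col-0. RCA stood at 4337 and 3631 FPKM in Col-0, 3470 and 3481 in dek3-2, 3902 and 3384 in dek4-2, and 2963 and 2795 in dd-2. The activase message followed the order of RBCS1A, with dd-2 lowest, dek3-2 below Col-0 and dek4-2 overlapping it. In Col-0 and dek4-2 replicate 1 was above replicate 2 for all 5 genes. Within Col-0 the gap ran from 8.09% of the replicate 2 level (RBCS3B) to 21.6% (RBCS1B).

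**Figure D2:**
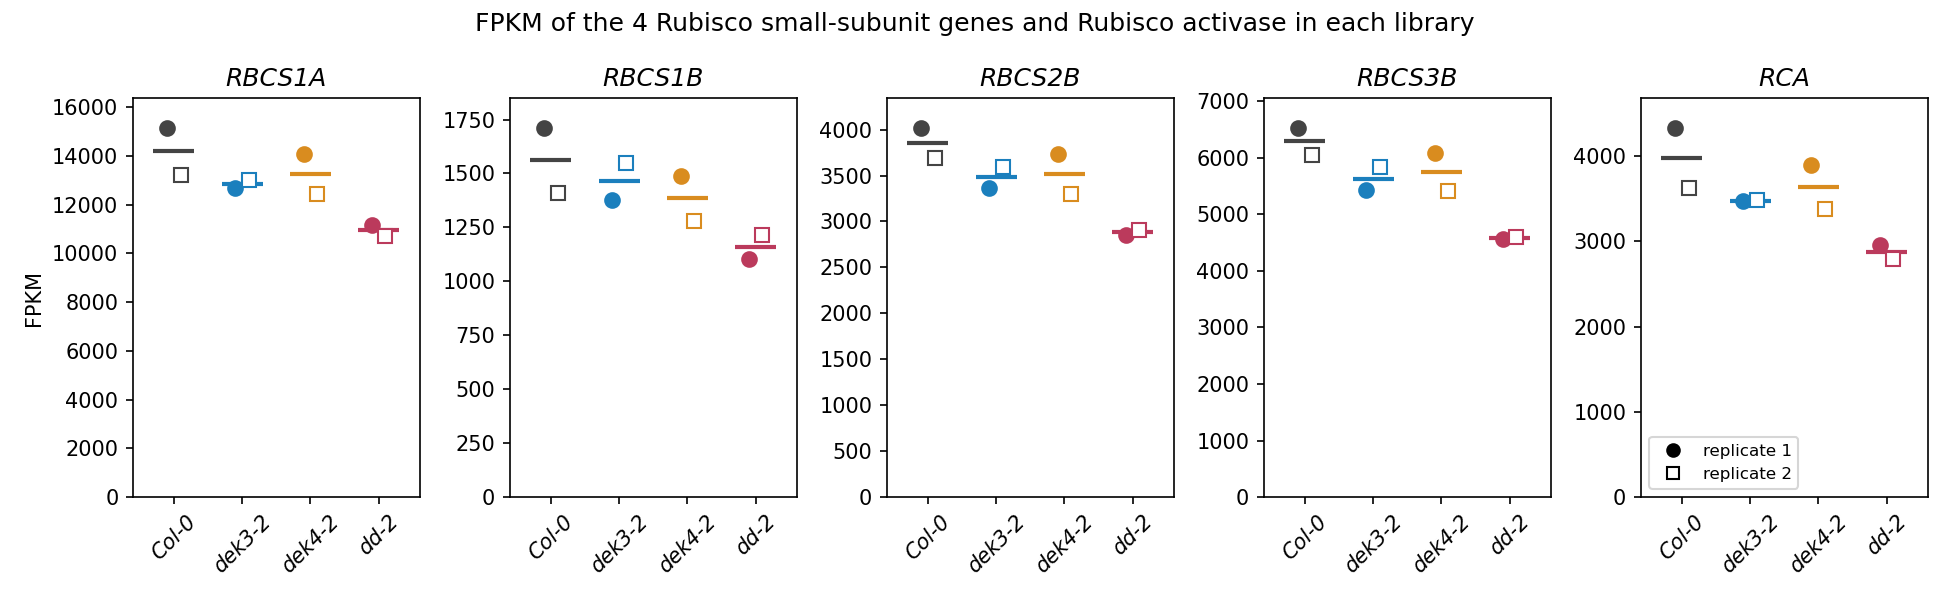
FPKM of the 5 genes in each library, 1 panel per gene, with 2 points per genotype and a bar at the mean. The vertical axes start at 0 and differ between panels. In every panel both dd-2 points lie below the points of the other 3 genotypes.

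With both DEK genes mutated, all 5 messages had lower values in both dd-2 libraries than in both Col-0 libraries, at 72.5% (RCA) to 77.3% (RBCS1A) of the Col-0 level, but none passed the test over all genes. In that comparison 15.3% of the 19017 genes tested had both dd-2 libraries below both Col-0 libraries. The test was limma on log2(FPKM + 1) over all 8 libraries, with Benjamini-Hochberg adjustment over all genes tested and a threshold of 0.05. It called 0.252% of genes, 48 in all, of which 21 (0.110% of genes) were lower (30 of 49 under median-of-ratios scaling). Neither mutated gene was called in any comparison, though DEK3 was at -1.59 on the log2 scale in dd-2 minus Col-0 (adjusted p = 0.0828).

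RBCS3B had the smallest p of the members, with a log2 difference of -0.46 (SE 0.103, 95% interval -0.69 to -0.22, adjusted p = 0.1001). RCA had the lowest difference, -0.46 (SE 0.118, interval -0.73 to -0.19, adjusted p = 0.121). RBCS2B was at -0.42 (SE 0.102, adjusted p = 0.112), RBCS1B at -0.42 (SE 0.129, adjusted p = 0.158) and RBCS1A at -0.37 (SE 0.115, interval -0.63 to -0.11, adjusted p = 0.161). The 5 differences lay within 1 SE of each other. All 5 had an unadjusted p under 0.05, from 0.00201 to 0.0113, as did 5.85% of the genes tested in the lower direction. By size the 5 differences lay between the 1.33 and 2.39 percentiles of all genes tested, whose median difference was 0.08. An exact test of 2 libraries against 2 cannot go below p = 0.333. The libraries hold whole seedlings, so fewer green cells and less of these messages per cell cannot be told apart.

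Levels of tissue markers also differed between the groups, and their part in the result was not tested. The summed level of 5 root markers, nearly all from the root glucosidase gene PYK10, was 931 and 882 FPKM in Col-0, 1049 and 959 in dek3-2, 1017 and 1012 in dek4-2, and 1463 and 1222 in dd-2. No root or green marker was at 0 FPKM in any library. All 5 root markers were above 0 in dd-2 minus Col-0, with a median log2 difference of 0.56 and 0 called. In dek3-2 minus Col-0, 4 of them lay above 0 and 1 below. In dek4-2 minus Col-0, 4 lay below 0 (median -0.14), as did 48.8% of all genes tested, and only PYK10 lay above. The summed level of 5 green-tissue markers was 8867 and 7351 FPKM in Col-0, 6798 and 6761 in dek3-2, 7958 and 7215 in dek4-2, and 6619 and 6592 in dd-2. In dek3-2 minus Col-0 all 5 green markers lay below 0 (median log2 difference -0.23), as did 35.2% of all genes tested. In dek4-2 minus Col-0, 3 lay below 0 and 2 above. The green markers were also split in dd-2, with 3 below 0 and 2 above. CA1, the chloroplast carbonic anhydrase, was at -0.67 on the log2 scale (adjusted p = 0.0695), while CAB3, a light-harvesting protein of photosystem II, was at 0.52 (adjusted p = 0.149), and neither passed.

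In dek3-2 minus Col-0 all 5 members lay below 0 and none passed the test, with an adjusted p of 1 for each. The log2 differences were -0.14 for RBCS1A, -0.09 for RBCS1B, -0.15 for RBCS2B, -0.16 for RBCS3B and -0.19 for RCA, and every 95% interval included 0. The test called 0.0421% of genes in this comparison, and 35.2% of genes lay below 0. Both dek3-2 libraries lay below both Col-0 libraries for 4 of the 5 members, against 10.1% of genes tested. Without dek3-2 replicate 1, the library with the most seed message, the differences were -0.12, -0.0027, -0.10, -0.11 and -0.19 in the same order of genes. The Col-0 libraries moved them more: without Col-0 replicate 1 they were -0.04, 0.05, -0.09, -0.10 and -0.06, so that RBCS1B turned, and without Col-0 replicate 2 they were -0.24, -0.23, -0.21, -0.22 and -0.32. None passed with either library left out. Without dek3-2 replicate 2 RBCS1B was at -0.17.

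In dek4-2 minus Col-0 the log2 differences were -0.10 for RBCS1A, -0.17 for RBCS1B, -0.14 for RBCS2B, -0.13 for RBCS3B and -0.13 for RCA, with an adjusted p of 1 for each. The test called 0.0210% of genes there, and 48.8% of genes lay below 0. The dek4-2 libraries overlapped the Col-0 libraries for all 5 members, while 12.1% of genes had both dek4-2 libraries lower. These values rested on single libraries of both groups, as each moved by more than 1.5 times. Without Col-0 replicate 1 they were 0.0033, -0.03, -0.07, -0.08 and 0.0012 in the same order of genes, and without dek4-2 replicate 2 they were -0.0065, -0.06, -0.05, -0.05 and -0.02. Leaving out Col-0 replicate 2 gave -0.31 (RBCS1B) to -0.19 (RBCS3B), and leaving out dek4-2 replicate 1 gave -0.28 (RBCS1B) to -0.19 (RBCS1A). The single mutants and dd-2 share the same Col-0 libraries, so these sets of differences are not independent of each other.

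The double mutant was also compared with each single mutant. In dd-2 minus dek3-2 the members ran from -0.33 (RBCS1B) to -0.23 (RBCS1A) on the log2 scale, with adjusted p from 0.372 to 0.524, where 0.0263% of genes were called. Without dek3-2 replicate 1 they ran from -0.42 (RBCS1B) to -0.25 (RBCS1A). In dd-2 minus dek4-2 they ran from -0.34 (RCA) to -0.25 (RBCS1B), with adjusted p from 0.320 to 0.454, where 0.0421% of genes were called. RBCS1B moved to -0.14 there without dek4-2 replicate 1. Both dd-2 libraries lay below both libraries of the single mutant for all 5 members in each comparison, as they did for 16.7% of genes against dek3-2 and 12.2% against dek4-2. The interaction, how far dd-2 departs from the sum of both single-mutant differences, ran from -0.17 (RBCS3B) to -0.14 (RBCS1A). No interaction passed (adjusted p = 1.00 for each, 0.0158% of genes called), and its 95% interval for RBCS3B ran from -0.50 to 0.17. The interaction ran from -0.25 (RBCS1B) to -0.15 (RCA) without dek3-2 replicate 1. It moved most with the Col-0 libraries, from -0.31 (RBCS1B) to -0.20 (RBCS2B) without replicate 1 and from -0.11 (RBCS3B) to -0.02 (RCA) without replicate 2. Each dek4-2 library, dek3-2 replicate 2 and, for RBCS1B, dd-2 replicate 1 also moved members by more than 1.5 times. Over the 8 libraries left out in turn it ran from -0.31 to -0.02.

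**Figure D3:**
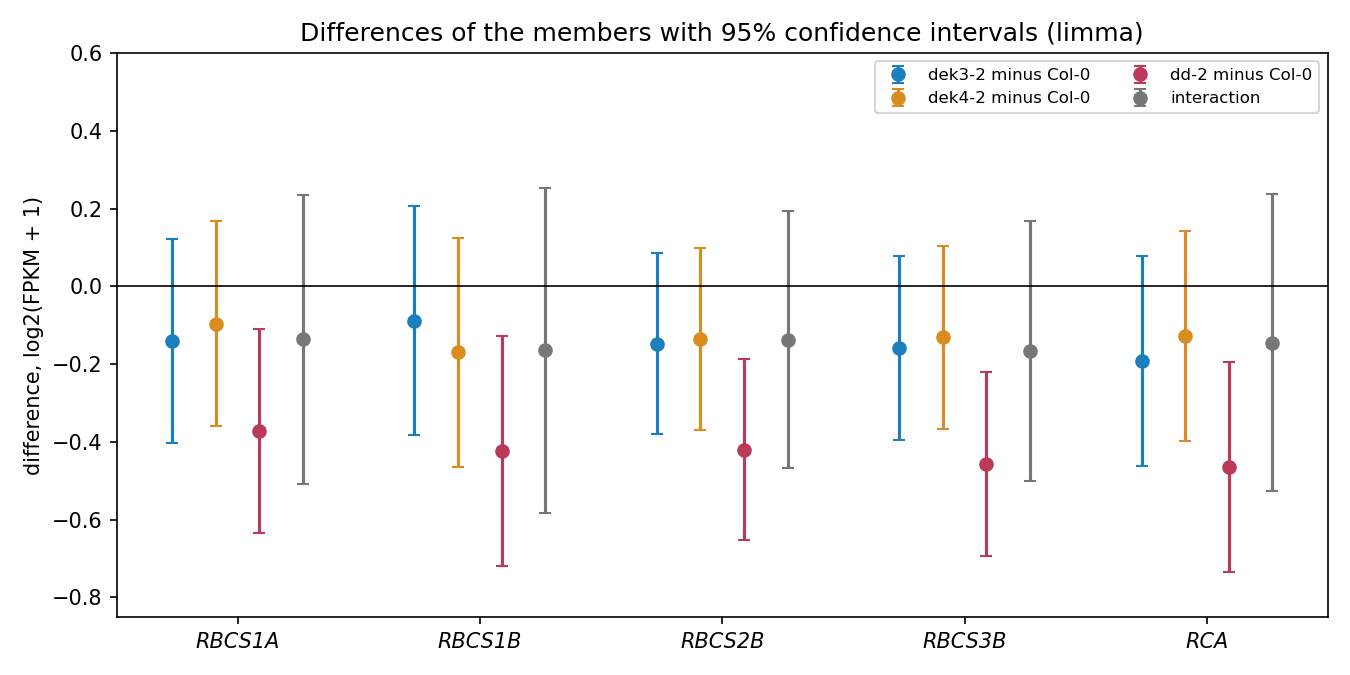
Differences of the 5 genes on the log2(FPKM + 1) scale, as points with 95% intervals from limma, for each mutant minus Col-0 and for the interaction. The intervals of dd-2 minus Col-0 lie below 0 for each gene before adjustment, those of the single mutants and of the interaction include 0, and no adjusted p was under 0.05.

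The shares of the 4 genes in the small-subunit message stayed in narrow ranges, while its total was lowest in dd-2. The summed FPKM of the 4 RBCS genes was 27432 and 24359 in Col-0, 22844 and 24004 in dek3-2, 25394 and 22439 in dek4-2, and 19677 and 19439 in dd-2. The total took 2.31 ± 0.0116% (SD, n = 2) of all FPKM in dd-2, against 3.01 ± 0.190% in Col-0, 2.73 ± 0.0898% in dek3-2 and 2.80 ± 0.221% in dek4-2. Both dd-2 libraries thus held a smaller share of small-subunit message than any of the other 6 libraries, and the single mutants overlapped each other.

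Within that total RBCS1A took 55.3% and 54.2% in Col-0, 55.5% and 54.2% in dek3-2, 55.5% and 55.5% in dek4-2, and 56.7% and 55.1% in dd-2. RBCS3B took 23.8% and 24.8% in Col-0, 23.8% and 24.3% in dek3-2, 23.96% and 24.1% in dek4-2, and 23.2% and 23.6% in dd-2. The RBCS3B share was lower in both dd-2 libraries than in the other 6. The RBCS1A share of dd-2 and dek3-2 overlapped that of Col-0, and in dek4-2 it was above Col-0 in both libraries. RBCS2B took 14.5% to 15.2% and RBCS1B 5.61% to 6.46% over the 8 libraries, and for both genes each mutant overlapped Col-0. RCA stood at 15.8% and 14.9% of the small-subunit total in Col-0, 15.2% and 14.5% in dek3-2, 15.4% and 15.1% in dek4-2, and 15.1% and 14.4% in dd-2. The mutants overlapped Col-0 in this ratio, which does not depend on scaling between libraries.

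**Figure D4:**
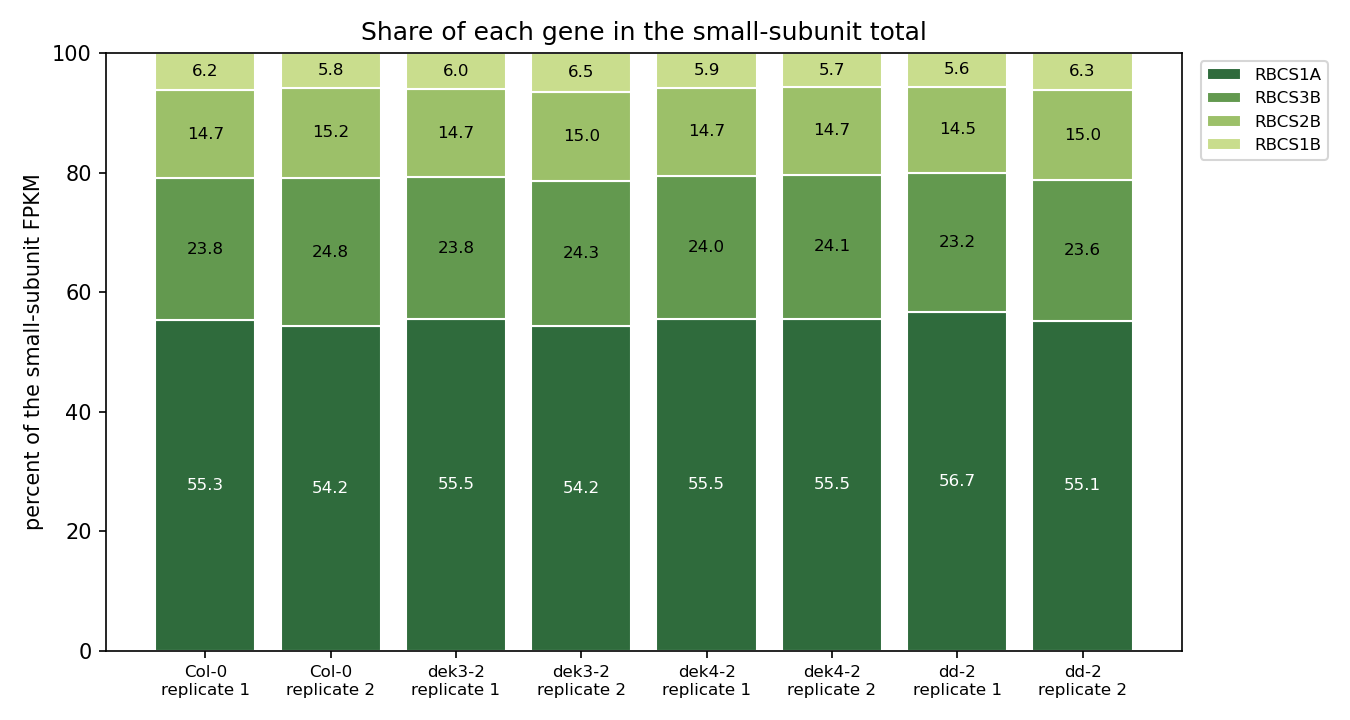
Share of each small-subunit gene in the summed RBCS FPKM of each library, as stacked bars that add to the whole. RBCS1A takes 54.2% to 56.7%, RBCS3B 23.2% to 24.8%, RBCS2B 14.5% to 15.2% and RBCS1B 5.61% to 6.46%.

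RBCL, the chloroplast gene of the large subunit, overlapped between all genotypes. It stood at 59.2 and 56.8 FPKM in Col-0, 50.3 and 58.6 in dek3-2, 65.5 and 49.7 in dek4-2, and 41.9 and 79.9 in dd-2, and the dd-2 libraries were its lowest and its highest value. Its log2 difference in dd-2 minus Col-0 was -0.0024. The level of this chloroplast message depends on how RNA was selected for the libraries, which was not given in the sources used here, and the chloroplast genome took 1.19% to 1.43% of FPKM in the replicates numbered 1 and 1.79% to 1.87% in those numbered 2.

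Related lists were described by counts beside all genes tested, of which 34.0% lay below 0 in dd-2 minus Col-0. Both dd-2 libraries lay below both Col-0 libraries for 15.3% of all genes tested. By the same test no list member was called in any of the 6 contrasts. Of 20 Calvin-Benson cycle genes, which regenerate the sugar that Rubisco carboxylates, 19 lay below 0 in dd-2, with a median log2 difference of -0.33, and 18 had both dd-2 libraries below both Col-0 libraries. FBA1, a chloroplast fructose-bisphosphate aldolase, had the lowest p of the list in dd-2 and in dek3-2. It stood at 795 and 640 FPKM in Col-0, 585 and 613 in dek3-2, 692 and 610.1 in dek4-2, and 469 and 452 in dd-2, and both dd-2 libraries were below all others. Its log2 difference was -0.63 in dd-2 (adjusted p = 0.0715) and -0.25 in dek3-2 (adjusted p = 1). PGK2, a chloroplast phosphoglycerate kinase, had the lowest p in dek4-2, at -0.16 (adjusted p = 1). The list medians were -0.10 in dek3-2 and -0.11 in dek4-2, where those of all genes were 0.04 and 0.00275.

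Photorespiration salvages the carbon of the 2-phosphoglycolate that Rubisco makes when it reacts with oxygen. Of the 18 genes of that list that were tested, 18 lay below 0 in dd-2 minus Col-0, with a median of -0.29, and 17 had both dd-2 libraries below both Col-0 libraries. CAT2, the peroxisomal catalase of leaves, stood at 884 and 899 FPKM in Col-0, 759 and 874 in dek3-2, 885 and 878 in dek4-2, and 645 and 635 in dd-2. Its dek4-2 libraries overlapped Col-0 while both libraries of dek3-2 and of dd-2 lay below it, and its difference in dd-2 was -0.48 (adjusted p = 0.0715). GLDP1, the P protein of glycine decarboxylase, had the lowest p in dek3-2 (-0.17) and GLYK, glycerate kinase, in dek4-2 (-0.12), with an adjusted p of 1 for both.

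Rubisco also needs chaperones for its assembly and a phosphatase that clears inhibitors. Of 17 genes listed for Rubisco assembly and upkeep, 16 lay below 0 in dd-2 (all 17 under median-of-ratios scaling), with a smaller median of -0.18. In 12 of the 17 both dd-2 libraries lay below both Col-0 libraries. CBBY (AT3G48420), a phosphatase that degrades an inhibitory sugar phosphate made by Rubisco, had the lowest p in each of the 3 comparisons with Col-0. It stood at 180 and 165 FPKM in Col-0, 145 and 155 in dek3-2, 146 and 148 in dek4-2, and 131 and 121 in dd-2. All 6 mutant libraries lay below both Col-0 libraries, with log2 differences of -0.20 in dek3-2, -0.23 in dek4-2 (adjusted p = 1 for both) and -0.45 in dd-2 (adjusted p = 0.0695).

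The list of light and plastid regulators of RBCS genes, which holds activators and repressors, did not lean one way. Of the 22 tested, 13 lay above 0 and 9 below in dd-2 minus Col-0, with a median of 0.06, and under median-of-ratios scaling 12 lay below. PIF4, a bHLH factor that represses many light responses and is itself destabilised by phytochrome, had the lowest p in dd-2 and in dek4-2. Its message stood at 3.16 and 3.59 FPKM in Col-0, 3.25 and 2.49 in dek3-2, 5.38 and 4.14 in dek4-2, and 7.43 and 7.27 in dd-2. Its log2 differences from Col-0 were 0.93 in dd-2 (adjusted p = 0.0612) and 0.39 in dek4-2 (adjusted p = 1). GNC, a GATA factor that promotes chlorophyll synthesis and chloroplast development, had the lowest p in dek3-2, at -0.18 (adjusted p = 1). The list holds 5 bZIP factors known to bind the G-box, which were grouped after their values had been seen. GBF2 stood at 10.4 and 11.0 FPKM in Col-0, 10.9 and 10.4 in dek3-2, 12.2 and 12.5 in dek4-2, and 15.3 and 16.5 in dd-2 (log2 difference of dd-2 from Col-0 0.53, adjusted p = 0.0612). GBF3 stood at 6.13 and 6.44 FPKM in Col-0, 9.09 and 5.71 in dek3-2, 8.85 and 8.74 in dek4-2, and 13.6 and 9.18 in dd-2 (0.74, adjusted p = 0.1502). HY5, an activator of light responses, stood at 49.7 and 47.0 FPKM in Col-0, 44.7 and 44.8 in dek3-2, 47.7 and 44.9 in dek4-2, and 44.0 and 44.2 in dd-2 (-0.13, adjusted p = 0.334). GBF2 and GBF3 thus had differences above 0 in dek4-2 and dd-2 minus Col-0. HY5 lay below both Col-0 libraries in dek3-2 and dd-2. Of all 19017 genes tested, 9717 lay above 0 in dek4-2 minus Col-0 and 12529 in dd-2 minus Col-0. Both libraries lay below both Col-0 libraries for 10.1% of genes in dek3-2 and 15.3% in dd-2. Of the other two, GBF1 was at 0.09 in dd-2 minus Col-0 (adjusted p = 0.499) and HYH, a close relative of HY5, at -0.16 (adjusted p = 0.414).

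**Figure D5:**
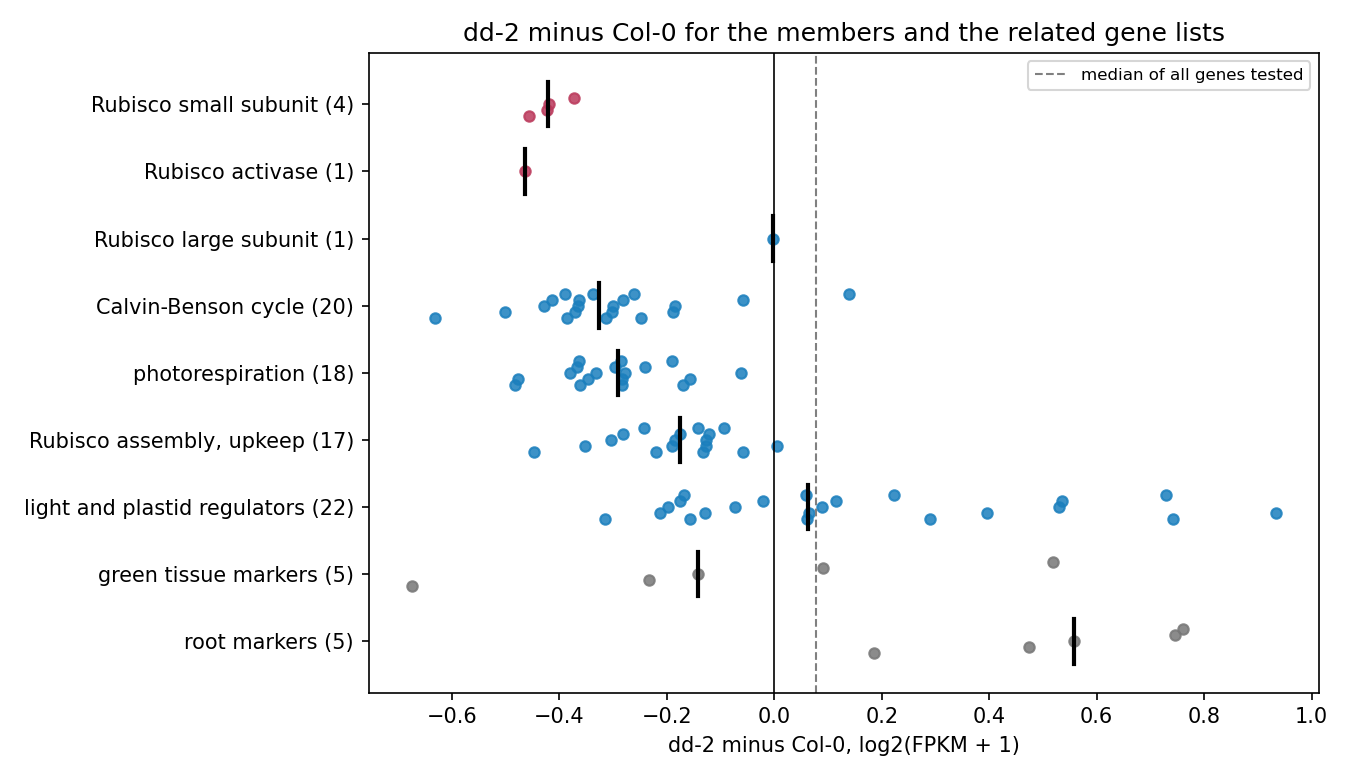
Differences in dd-2 minus Col-0 on the log2(FPKM + 1) scale for the 5 members, RBCL, the tested genes of the 4 related lists and the green and root markers, with 1 point per gene, a bar at each list's median and a dashed line at the median of all genes tested (0.08). The medians are -0.33 for the Calvin-Benson cycle, -0.29 for photorespiration, -0.18 for assembly and upkeep and 0.06 for the regulators.

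The genes most like each member over the 8 libraries were sought among 11266 genes whose mean reached 10 FPKM, by Pearson's r of log2(FPKM + 1) over n = 8. Any difference in depth or scaling between libraries is shared by all genes, so these values are descriptions. For RBCS1A they were GRXS14, a chloroplast glutaredoxin, GAPB, a subunit of chloroplast glyceraldehyde-3-phosphate dehydrogenase, and AGT1, the peroxisomal serine:glyoxylate aminotransferase, each at r = 0.997. GAPB was also the nearest to RCA (r = 0.996), followed by TLP18.3, a thylakoid protein, and the chloroplast fructose-1,6-bisphosphatase gene (0.995 each). GAPB stood at 1591 and 1316 FPKM in Col-0 and 1042 and 1002 in dd-2. For RBCS2B and RBCS3B the nearest was AT2G35410 (0.995 and 0.993). It was followed for RBCS2B by AT4G35250 and PDE225 (0.993 each), and for RBCS3B by FKBP16-4 and FBA2, a second chloroplast aldolase (0.991 each). RBCS1B had the lowest top values, with the dicarboxylate transporter DIT1 at 0.991, BOLA4 at 0.989 and DIT2-1 at 0.988.

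Among the members, RBCS2B and RBCS3B were closer to each other (r = 0.998) than either was to any gene outside the family. RCA was closer to RBCS1A (0.997) than to any gene outside the members. The lowest value was that of RBCS1B with RCA (0.891), and RBCS1B was below 0.95 with every other member. RBCS1B and RBCS2B, which are the most alike in coding sequence, were at 0.947.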

How the data were processed

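Each of the 8 libraries had 1 deposited table with FPKM per gene, per the file headers, and HISAT2, featureCounts, edgeR and TAIR10 are named in the submitters' processing notes without versions or roles. Which program wrote the FPKM that the authors deposited, and whether libraries were scaled to each other, was not given in the sources used here. A directional kit was used, per the labels' protocols, but whether counting used strand was not given.

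The tables hold no counts. Low values fell on whole multiples of 1 step (within 0.15) for 99.8% to 100% of those examined, which by itself gave relative depth only. If 1 step was 1 fragment, 1 FPKM on 1 kb stood for 24.3 to 34.05 fragments. FPKM was tested as log2(FPKM + 1), which understates the change of low genes, with limma 3.58.1 (variance trend, robust estimation) in R 4.3.3. One model held the 8 libraries with 1 mean per genotype, over the 19017 genes whose mean reached 1 FPKM, and p was adjusted by Benjamini-Hochberg over all of them. The fit was checked on simulated data without gene-specific spread, so that check does not measure its power here. The members and lists were chosen with earlier results of these data known, and no list was tested as a set. The 5 members and RBCL are always named. From each related list the gene with the lowest p in each comparison with Col-0 is named, as no list gene was called, and for likeness the 3 genes nearest to each member. HY5, HYH, GBF1, GBF2, GBF3 and HPR1 were named after their values were seen. PGLP1 (AT5G36790, deposited under the name PGLP1B) and ABI4 lay below 1 FPKM and were not tested. PGLP1B has a near-identical copy that is not on the list. The treatment of reads with several matches was not given, so the low value need not mean little PGLP1 message.

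Bases, strands and transcripts came from the RefSeq assembly TAIR10.1 with Biopython 1.88. Gene positions, and the annotated starts that anchor the promoter windows, were those deposited with the FPKM values. Of 28624 genes matched by code, 99.997% overlapped the same locus in the tables. The deposited start equalled a RefSeq start for 53.7% of them, and the end a RefSeq end for 53.3%. Plots were made in Python 3.11.15 (matplotlib 3.10.9). The alternatives were median-of-ratios scaling, a pseudocount of 0.1, a fit on the compared genotypes only, testing every gene whatever its level, dropping organelle genes, a block for the replicate number, no variance trend or robust estimation, removing trends with length and GC, and leaving out each library.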

Additional observations from a re-analysis of the deposited data

How the results depend on the processing

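The 30 member differences were refitted under 8 alternatives that kept every library and with each of the 8 libraries left out, 475 refits in all. The 5 interactions need all genotypes and have no fit on the compared genotypes only. None passed an adjusted p of 0.05 in limma, and 472 lay below 0. The 3 that turned all came without Col-0 replicate 1, and the cause was not tested. With 1 library left out RBCS1B in dek3-2 minus Col-0 ran from -0.23 to 0.0525, RBCS1A in dek4-2 minus Col-0 from -0.20 to 0.0033 and RCA in dek4-2 minus Col-0 from -0.26 to 0.0012. In dd-2 minus Col-0 the members ran from -0.55 to -0.35 with every library kept (adjusted p 0.0551 to 0.263) and from -0.59 to -0.27 with 1 left out (adjusted p 0.121 to 0.507). As a percentage of nuclear FPKM the small-subunit total in dd-2 was 2.35.

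Same-numbered libraries deviated together only weakly (r from -0.07 to 0.23 over 6 pairs of genotypes), so the number was not taken to pair them, although the chloroplast share of FPKM was higher in replicate 2 of every genotype. With the replicate number as a block the adjusted p in dd-2 minus Col-0 was 0.0919 for RBCS1A, 0.127 for RBCS1B, 0.0730 for RBCS2B, 0.0604 for RBCS3B and 0.0551 for RCA, and 305 genes were called in place of 48. Among them were FBA1 (adjusted p = 0.0368), CAT2 (0.0425), CBBY (0.0425), HPR1 (0.0464), a peroxisomal hydroxypyruvate reductase of photorespiration, and the marker CA1 (0.0392), all lower, and PIF4 (0.0371), GBF2 (0.0392) and the root markers PYK10 (0.0351) and PER64 (0.0436), all higher. In dd-2 minus dek3-2 PIF4 was called with the block (0.0381). No other list gene was called under any alternative, apart from the mutated gene DEK3 in dd-2 minus Col-0 with length and GC trends removed (0.0491). The count was 26 without the filter, 16 with the compared genotypes only, 23 without variance trend or robust estimation, and 10 to 35 with 1 library left out. In dd-2 minus dek3-2 it was 5, and 74 with the block, 10 without the filter, 3 under median-of-ratios scaling, with the compared genotypes only or without organelle genes, 2 with length and GC trends removed and 1 without variance trend or robust estimation. In dek3-2 minus Col-0 it was 8, and 5 to 16 over all alternatives, in dek4-2 minus Col-0 it was 4, and 2 to 10, in dd-2 minus dek4-2 it was 8, and 4 to 13, and for the interaction it was 3, and 0 to 11. With 2 libraries a genotype, the intervals of the single-mutant differences span changes of either sign.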
